A study of Homo sapiens with 2 samples.

Results

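The genes described here are the 60 protein-coding genes whose share of gene reads was at least 8-fold lower in the 5-fluorouracil-resistant clone MIP/5FU than in its parent line MIP101. They were selected on that ratio from 14179 protein-coding genes for which the 2 libraries together gave 100 reads or more, out of 21013 protein-coding genes outside the Y chromosome. MIP101 is a colorectal cancer line from a liver metastasis, sensitive to 5-fluorouracil (5-FU). MIP/5FU is 1 clone selected from MIP101 by passage in increasing amounts of the drug, and its IC50 is 10-fold higher. MIP/5FU cultures were kept in 5 µM 5-FU, and cultures of both lines grew without drug or antibiotics for about 48 hours before polyadenylated RNA was taken. Each line gave 1 library, so a difference between the lines cannot be told apart from a difference between these 2 libraries, and no ratio has a replicate check.

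The ratio is the log2 of a gene's share of gene reads in MIP/5FU minus that in MIP101, with 0.5 reads added to each count. Each fold is given with an exact 95% interval that covers counting error only, since PCR reads without molecular identifiers are not independent molecules. Because the genes were chosen for being low in MIP/5FU, their ratios describe the selection and are not tested. The rule took 65 of the 14179 genes (0.458%), while 0.106% were higher in MIP/5FU by 8-fold or more. The set described leaves out 5 of the 65, namely H19, COL3A1, COL4A1, FUT3 and WNT11. Gene reads summed to 200141071 for MIP101 and 109693681 for MIP/5FU, so 3 reads in the clone amount to 0.0273 RPM (reads per 1000000 gene reads). Both libraries carried epithelial keratins in quantity, with 662202 reads of KRT8 in the parent and 421674 in the clone. The 13 colon epithelium markers listed summed to 8257 RPM in MIP101 and 9245 RPM in MIP/5FU. VIL1, with 25020 and 5855 reads (-1.23), was the 1 marker at least 2-fold lower, and 0 were at least 2-fold higher. CDX1 (95 and 52 reads) and GPA33 (58 and 49) had few reads in both libraries.

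By function the 60 genes are a mixed set, with no single pathway holding most of them. The largest group by role, 10 genes, encodes enzymes, among them ones of lipid, sugar and steroid metabolism. Others encode secreted proteases and protease inhibitors, membrane transporters and receptors, proteins best known from immune cells, and regulators of transcription. 5-FU is a pyrimidine analogue whose active metabolite blocks thymidylate synthase, an enzyme that uses a reduced folate as cofactor. None of the 60 genes encodes that enzyme, and 1 of them, FOLR1, encodes a receptor that brings folate into cells.

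In vertebrates DNA methylation falls mainly on the cytosine of CG pairs (CpG), and gene starts differ widely in how many of these they hold. RefSeq promoter windows on GRCh38.p14, from 250 bases before to 50 after the annotated start, were matched to 40 of the 60 genes. The 4 printed here, 5′ to 3′ along the gene with CpG in capitals, span the range from CpG-rich to CpG-poor and include both genes of an adjacent pair. UBXN10 (chr1:20185846-20186145, plus strand) had the most MIP101 reads among the genes with no read in MIP/5FU. HSD3B1 (chr1:119506953-119507252, plus strand) has 1 CpG in its window, while PRF1 (chr10:70602692-70602991, minus strand) and ADAMTS14 (chr10:70672256-70672555, plus strand) lie side by side on chromosome 10.
UBXN10: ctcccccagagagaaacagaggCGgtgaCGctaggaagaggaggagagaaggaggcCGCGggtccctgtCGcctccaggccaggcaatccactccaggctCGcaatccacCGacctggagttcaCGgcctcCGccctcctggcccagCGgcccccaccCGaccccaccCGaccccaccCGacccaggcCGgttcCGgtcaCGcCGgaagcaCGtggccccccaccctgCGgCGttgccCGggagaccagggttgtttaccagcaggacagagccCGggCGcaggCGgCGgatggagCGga
HSD3B1: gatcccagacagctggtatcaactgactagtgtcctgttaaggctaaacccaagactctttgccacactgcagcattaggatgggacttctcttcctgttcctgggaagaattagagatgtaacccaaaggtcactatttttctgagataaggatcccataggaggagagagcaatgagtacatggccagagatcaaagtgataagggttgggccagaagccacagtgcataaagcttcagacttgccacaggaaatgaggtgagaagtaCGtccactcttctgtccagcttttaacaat
PRF1: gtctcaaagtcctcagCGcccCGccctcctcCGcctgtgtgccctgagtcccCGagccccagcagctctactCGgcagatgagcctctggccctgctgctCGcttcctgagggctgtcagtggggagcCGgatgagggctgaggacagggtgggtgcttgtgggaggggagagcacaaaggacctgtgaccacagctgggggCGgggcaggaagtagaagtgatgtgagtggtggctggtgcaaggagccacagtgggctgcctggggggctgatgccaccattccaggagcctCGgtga
ADAMTS14: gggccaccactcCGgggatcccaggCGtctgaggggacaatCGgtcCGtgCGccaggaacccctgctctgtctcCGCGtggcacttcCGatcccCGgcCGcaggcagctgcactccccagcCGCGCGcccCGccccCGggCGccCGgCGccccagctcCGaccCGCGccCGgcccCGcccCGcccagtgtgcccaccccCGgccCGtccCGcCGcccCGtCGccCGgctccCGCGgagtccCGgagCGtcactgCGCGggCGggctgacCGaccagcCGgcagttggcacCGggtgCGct
The UBXN10 window holds 26 CpG, an observed over expected ratio of 0.693 given its C and G content. The HSD3B1 window holds 1 CpG and a ratio of 0.0632. In the adjacent pair the PRF1 window has 9 CpG and a ratio of 0.285, and the ADAMTS14 window has 42 and a ratio of 0.915.

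A window was called CpG-rich with at least 55% G and C and a CpG ratio of at least 0.6. This held for 18 of the 40 matched genes (45.0%), for 72.9% of the 10582 matched protein-coding genes with 100 reads and for 44.0% of all 27305 windows. Of the 40, 39 lay below the median MIP101 level, and 43.6% of those were CpG-rich, beside 61.9% of the 4835 matched genes below that median and 82.2% of those above it. The median CpG ratio was 0.590 in the 40 windows and 0.830 in the protein-coding ones. C15orf48 had the highest ratio, 1.12 with 45 CpG, followed by MLNR at 0.985 with 48. The letters TATAAA, searched on both strands, were in the windows of CD163L1 and CHI3L1, or 5.00% of the 40, beside 6.13% of the protein-coding windows and 12% of all. Methylation was not measured, and an annotated start need not be the one used in these cells.

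No read was counted in MIP/5FU for 7 of the 60 genes. UBXN10, a ciliary protein with a UBX domain that binds the unfoldase VCP, had 547 reads (2.73 RPM) in MIP101 and was at least 99.9-fold lower in MIP/5FU, against a floor of 3 reads set for a count of 0 in that library. In RNA from whole cultures, fewer cells expressing a gene and less of its RNA in each cell cannot be told apart. SERP2, a stress-associated protein of the endoplasmic reticulum, had 294 reads (1.47 RPM) and was at least 53.7-fold lower in MIP/5FU. RASSF10, from a family with a Ras-association domain, had 183 reads (0.914 RPM) and was at least 33.4-fold lower. CD163L1, a scavenger receptor cysteine-rich protein, had 179 reads (0.894 RPM) and was at least 32.7-fold lower. PKP1, a plaque protein of desmosomes, had 142 reads (0.710 RPM), the organic anion transporter SLCO2B1 had 117 (0.585 RPM) and the little-described C6orf118 had 102 (0.510 RPM). These were at least 25.9-fold, 21.4-fold and 18.6-fold lower. Each bound holds only against that floor, and the lower limits of the 7 counting intervals were below the bounds, from 14.9-fold for C6orf118 to 81.0-fold for UBXN10.

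In another 5 genes MIP/5FU had 1 to 3 reads. PON3, a lactonase of the paraoxonase family, had 375 reads in the parent and 2 in the clone, 82.3-fold lower (interval 28.3 to 852). FGD5, an exchange factor for Cdc42, had 193 and 2 reads, and TUSC3, a subunit of the complex that attaches N-glycans, had 132 and 2. CD22, a sialic acid-binding receptor of B cells, had 108 and 2 reads, and the death ligand gene FASLG had 108 and 3. The intervals of these 4 reached down to between 6.57-fold for FASLG and 14.4-fold for FGD5. Altogether 30 of the 60 genes kept 10 or fewer reads in MIP/5FU, and 8 kept more than 100.

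**Figure D1:**
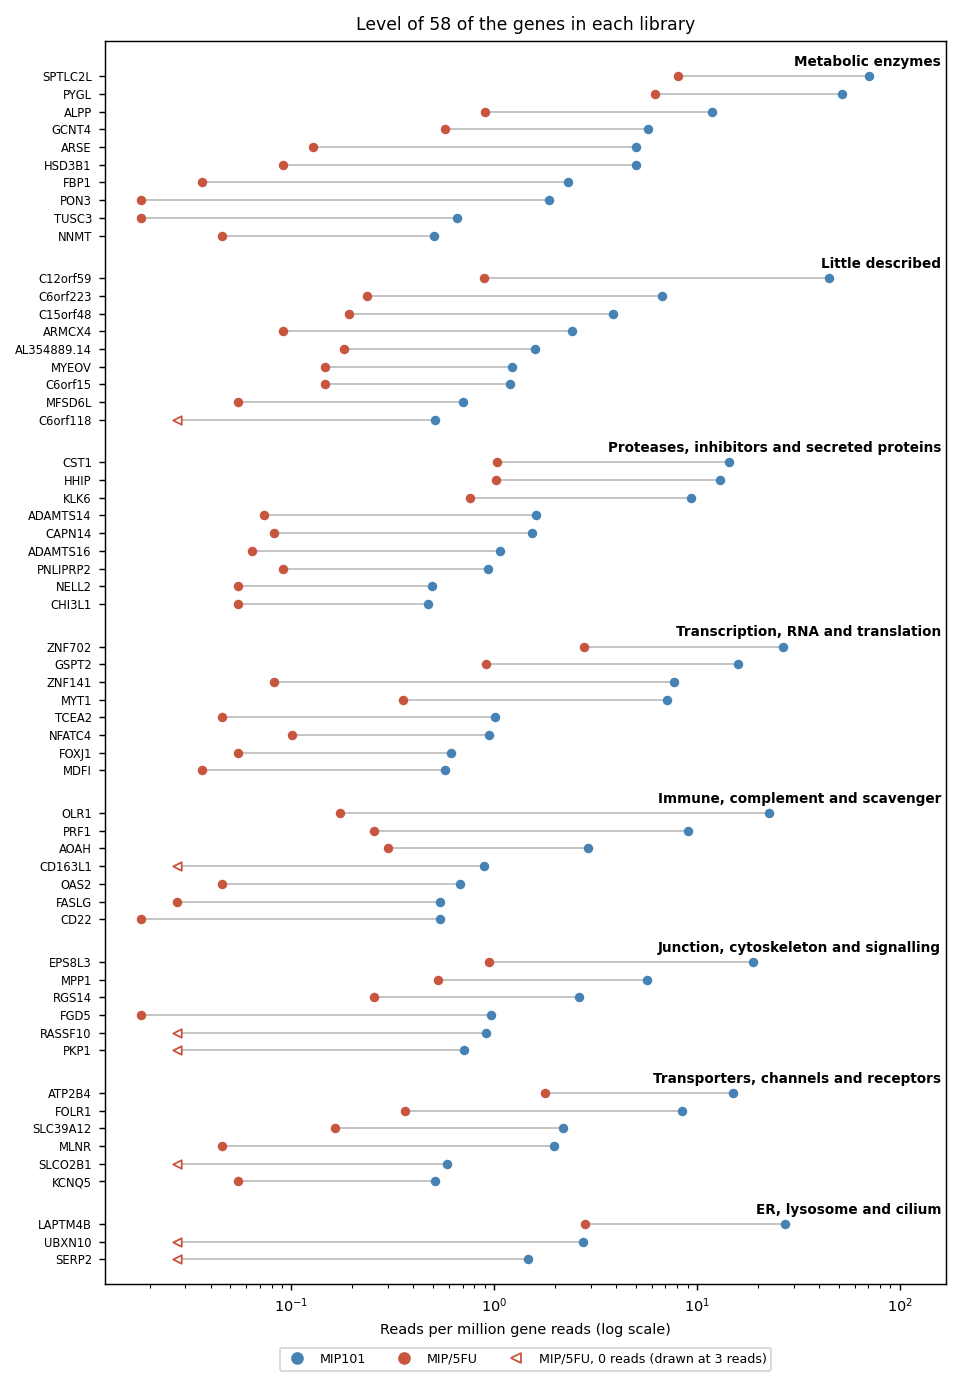
RPM of gene reads (log scale) of 58 of the 60 genes in MIP101 (blue) and MIP/5FU (red), 1 library each, grouped by role. Open triangles mark the 7 genes with 0 reads in MIP/5FU, drawn at the value of 3 reads, which is higher than the value of the 4 genes with 2 reads; MIP101 lies to the right in all 58 rows because the genes were chosen that way.

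Among the 10 metabolic enzymes the summed level was 155 RPM in MIP101 and 16.1 RPM in MIP/5FU, and none was at 0. SPTLC2L, now named SPTLC3, encodes a subunit of serine palmitoyltransferase, which begins sphingolipid synthesis. It had the most reads of the set, 14141 (70.7 RPM) in the parent and 890 (8.11 RPM) in the clone, 8.70-fold lower (interval 8.14 to 9.33). PYGL, the liver form of glycogen phosphorylase, had 10379 reads (51.9 RPM) and 679 (6.19 RPM), 8.37-fold lower (7.75 to 9.07). ALPP, the placental alkaline phosphatase, had 2375 reads (11.9 RPM) and 99 (0.903 RPM), 13.1-fold lower (10.8 to 16.2). GCNT4, which branches mucin O-glycans, had 1149 reads (5.74 RPM) and 63 (0.574 RPM), 9.92-fold lower (7.75 to 13.1).

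HSD3B1, a 3-beta-hydroxysteroid dehydrogenase, had 997 reads (4.98 RPM) in the parent and 10 (0.0912 RPM) in the clone, 52.1-fold lower (interval 29.6 to 114). The arylsulfatase gene ARSE, now ARSL, had 1006 reads (5.03 RPM) and 14 (0.128 RPM), 38.0-fold lower (23.4 to 72.3). FBP1, the gluconeogenic fructose bisphosphatase, had 465 and 4 reads, 56.7-fold lower (24.7 to 235). NNMT, which methylates nicotinamide, had only 101 and 5 reads, and its interval of 4.59 to 34.8 reached well inside the threshold.

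The genes known from immune and scavenger functions summed to 39.5 RPM in MIP101 and 1.04 RPM in MIP/5FU. OLR1, the lectin-like receptor for oxidized LDL, had 4554 reads (22.8 RPM) and 19 (0.173 RPM), 128-fold lower with an interval of 84.0 to 218. PRF1, the pore-forming perforin of cytotoxic lymphocytes, had 1804 reads (9.01 RPM) and 28 (0.255 RPM), 34.7-fold lower (24.3 to 53.3). OAS2, an interferon-inducible oligoadenylate synthetase, had 136 reads (0.680 RPM) and 5 (0.0456 RPM), 13.6-fold lower (6.23 to 46.6). AOAH, which deacylates lipopolysaccharide, had 578 and 33 reads. CD163L1, CD22 and FASLG belong to the same group.

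Several defining markers of the blood cells that carry some of these proteins were at or near 0, and others had reads in both libraries. The pan-leukocyte gene PTPRC had 12 reads in the parent and 10 in the clone. CD3D of T cells, MS4A1 of B cells, and TYROBP, CD163 and FCGR3A of myeloid and NK cells were at 0 in both libraries. Of 10 markers of T and NK cells, 2 were at 0 in each library, and their sum was 8.79 RPM in MIP101 and 8.45 RPM in MIP/5FU. Most of that sum was CD8A, with 1358 and 695 reads, followed by CD3G with 287 and 159 and KLRD1 with 79 and 45. The 9 monocyte and macrophage markers summed to 1.97 and 3.06 RPM, mainly LYZ with 245 and 188 reads. The 4 B cell markers summed to 0.475 and 0.419 RPM, nearly all CD79A with 92 and 40 reads. Of 6 endothelial markers CDH5 was at 0 in both libraries, and the sum of 2.13 and 3.68 RPM was mostly ESAM, with 391 and 396 reads. Of 7 fibroblast markers COL1A2, DCN, LUM and PDGFRA were at 0 in both, and the sum of 12.7 and 16.6 RPM was mostly PDGFRB, with 2465 and 1788 reads. The 7 hepatocyte markers summed to 7.68 and 5.81 RPM, mostly SERPINA1 with 1345 and 428 reads. The part of other cell types in the ratios of the set was not tested.

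Of the 9 secreted proteins, proteases and inhibitors, CST1 (cystatin SN, an inhibitor of cysteine proteases) had the most reads, 2867 (14.3 RPM) and 113 (1.03 RPM), 13.8-fold lower with an interval of 11.5 to 16.9. Its close copies in the same gene cluster may share reads with it. HHIP, an antagonist of hedgehog ligands, had 2599 reads (13 RPM) and 112 (1.02 RPM), 12.7-fold lower (10.5 to 15.5). The serine protease KLK6 had 1867 reads (9.33 RPM) and 83 (0.757 RPM), 12.3-fold lower (9.89 to 15.6). ADAMTS14, a procollagen peptidase, had 321 reads (1.60 RPM) and 8 (0.0729 RPM), 20.7-fold lower (11 to 51.4). The group also held ADAMTS16 (213 and 7 reads), the calpain CAPN14 (309 and 9), the lipase-related PNLIPRP2 (186 and 10), NELL2 (99 and 6) and CHI3L1 (95 and 6). CHI3L1, a chitinase-like lectin, had 0.475 RPM in the parent and 0.0547 RPM in the clone, 8.05-fold lower (interval 3.84 to 24.2).

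Membrane transporters, channels and receptors made up 7 genes. ATP2B4, a calcium pump of the plasma membrane, had 3011 reads (15 RPM) in the parent and 196 (1.79 RPM) in the clone, 8.40-fold lower (interval 7.28 to 9.78). FOLR1, the folate receptor alpha, had 1687 reads (8.43 RPM) and 40 (0.365 RPM), 22.8-fold lower (16.9 to 32.5). The motilin receptor gene MLNR had 393 and 5 reads, the zinc transporter SLC39A12 had 439 and 18, and the potassium channel gene KCNQ5 had 102 and 6. SLCO2B1, with no read in MIP/5FU, belongs to the same group.

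Regulators of transcription and translation numbered 8. ZNF141, a zinc finger gene near the end of the short arm of chromosome 4, had 1551 reads (7.75 RPM) and 9 (0.0820 RPM), 89.5-fold lower with an interval of 49.6 to 207. ZNF702 had 5297 reads (26.5 RPM) and 305 (2.78 RPM), 9.50-fold lower (8.48 to 10.7), in an annotation that overlaps ZNF160 on the same strand. Its identifier now carries the symbol ERVK3-1 in the reference table of names, so what this annotation stands for is uncertain. GSPT2, an intron-less gene for a translation termination factor, had 3191 reads (15.9 RPM) and 100 (0.912 RPM), 17.4-fold lower (14.3 to 21.6). MYT1, a neural zinc finger factor, had 1419 reads (7.09 RPM) and 39 (0.356 RPM), 19.7-fold lower (14.5 to 28.2). TCEA2, an elongation factor of RNA polymerase II, had 202 reads (1.01 RPM) and 5 (0.0456 RPM), 20.2-fold lower (9.33 to 68.9). NFATC4 (189 and 11 reads), the ciliogenesis factor FOXJ1 (122 and 6) and MDFI, an inhibitor of myogenic factors (114 and 4), each had under 200 reads in MIP101.

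Among 6 genes of junctions, the cytoskeleton and signalling, EPS8L3, a relative of the EGF receptor substrate EPS8, stood highest with 3778 reads (18.9 RPM) and 103 (0.939 RPM), a log2 ratio of -4.32 and an interval of 16.5-fold to 24.7-fold. MPP1, a palmitoylated membrane scaffold, had 1137 and 58 reads, and RGS14, a regulator of G protein signalling, had 525 and 28. LAPTM4B, a lysosomal membrane protein, kept 308 reads (2.81 RPM) of 5451 (27.2 RPM) in MIP101, 9.69-fold lower (8.65 to 10.9).

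The remaining 9 genes were grouped as little described. C12orf59, now TMEM52B, had 8985 reads (44.9 RPM) in the parent and 98 (0.893 RPM) in the clone, a log2 ratio of -5.64 and an interval of 41.2-fold to 62.0-fold. C6orf223, since renamed as the long noncoding RNA LINC03040, had 1349 reads (6.74 RPM) and 26 (0.237 RPM), 27.9-fold lower (19.3 to 43.7). AL354889.14, with 319 and 20 reads, is likewise now listed as a noncoding RNA, LINC01270. C15orf48, named COXFA4L3 in RefSeq, had 768 and 21 reads. ARMCX4 had 482 and 10 reads, MYEOV had 246 and 16, C6orf15 had 241 and 16, and MFSD6L had 140 and 6. Several of the older annotations thus carry names or coding status that have since been revised.

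In the parent line most of the 60 genes were at low levels. Compared per length by the authors' normalized coverage per base, the median was 9.07 in MIP101 against 74.9 for all protein-coding genes with 100 reads. The level was below that overall median for 53 of the 60 and in the lowest quartile for 39, and none was in the top quartile. The highest per base was PYGL at 159, followed by SPTLC2L at 146, CST1 at 142 and C12orf59 at 138. The lowest was KCNQ5 at 0.643. The authors' own call of expression above background was met by 42 of the 60 genes in MIP101, beside 86.7% of all protein-coding genes with 100 reads. It was met by 5 of the 60 in MIP/5FU, beside 84.7%, namely PYGL, SPTLC2L, CST1, LAPTM4B and ZNF702. The low number in MIP/5FU follows largely from choosing genes with few reads there. Across the set the summed level was 459 RPM in MIP101 and 34.1 RPM in MIP/5FU, and 4 genes (SPTLC2L, PYGL, C12orf59 and LAPTM4B) held 42.4% of the MIP101 reads.

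**Figure D2:**
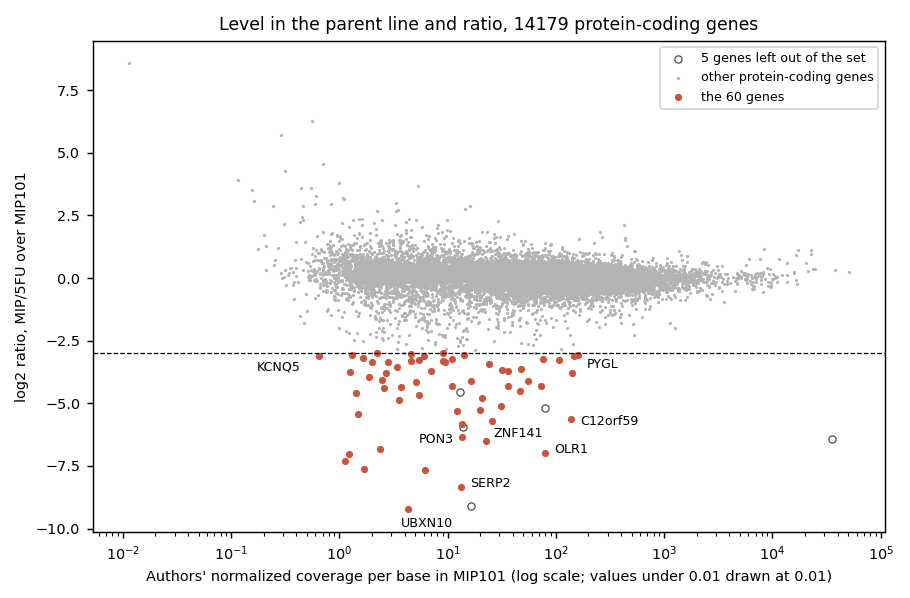
Log2 ratio of MIP/5FU over MIP101 against the authors' normalized coverage per base in MIP101 (log scale) for 14179 protein-coding genes, with the 60 genes in red and the 5 genes left out as open circles. The dashed line is the rule's limit of -3; the red points spread over the lower levels, with a median of 9.07, and include none from the top quartile of genes by level.

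The median log2 ratio of the set was -4.10, also with the 7 genes at 0 placed at their bound, beside 0.02 over all protein-coding genes with 100 reads. At least 16-fold was reached by 31 genes, and 16 lay between 8-fold and 10-fold. The whole counting interval was beyond 8-fold for 38 of the 60. The genes just inside the limit were MYEOV (8.19-fold), CHI3L1 (8.05-fold) and C6orf15 (8.02-fold). Just outside lay APH1B (7.91-fold), PHLDB2 (7.91-fold) and IFT172 (7.24-fold), so the limit cuts through a continuous range.

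The 60 genes were spread over 19 chromosomes, and their neighbours were mostly at similar levels in both lines. Chromosome 1 held 8 of them and chromosomes 6, 11, 12, 20 and X held 5 each. Chromosomes 16, 18, 21 and 22 held none. As a share of the protein-coding genes with 100 reads, chromosome 20 had 1.35% and chromosome X 1.12%, beside 0.423% for the 60 genes over all chromosomes. The next genes with 100 reads on either side gave 116 distinct neighbours outside the set, with a median log2 ratio of 0.01. Of these, 95 were within 1.5-fold, 5 were at least 2-fold lower and 3 at least 2-fold higher in MIP/5FU. Of all genes with 100 reads, 3.09% were at least 2-fold lower and 2.53% higher. The share of all genes within 1.5-fold was not computed, so the 95 describes these neighbours only.

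Taking the 10 genes on each side of every member of the set, the median log2 ratio of these flanks lay between -0.45 (around FASLG) and 0.33 (around AOAH). It was within 0.5 of 0 for 60 of 60 genes, as it was for 98.3% of all protein-coding genes with 100 reads. No long stretch of low genes therefore surrounded any of the 60. A neighbour at least 2-fold lower stood beside 8 of the 60 (13.3%), and beside 6.00% of all protein-coding genes with 100 reads. For 4 of the 8 that neighbour was itself one of the 60.

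**Figure D3:**
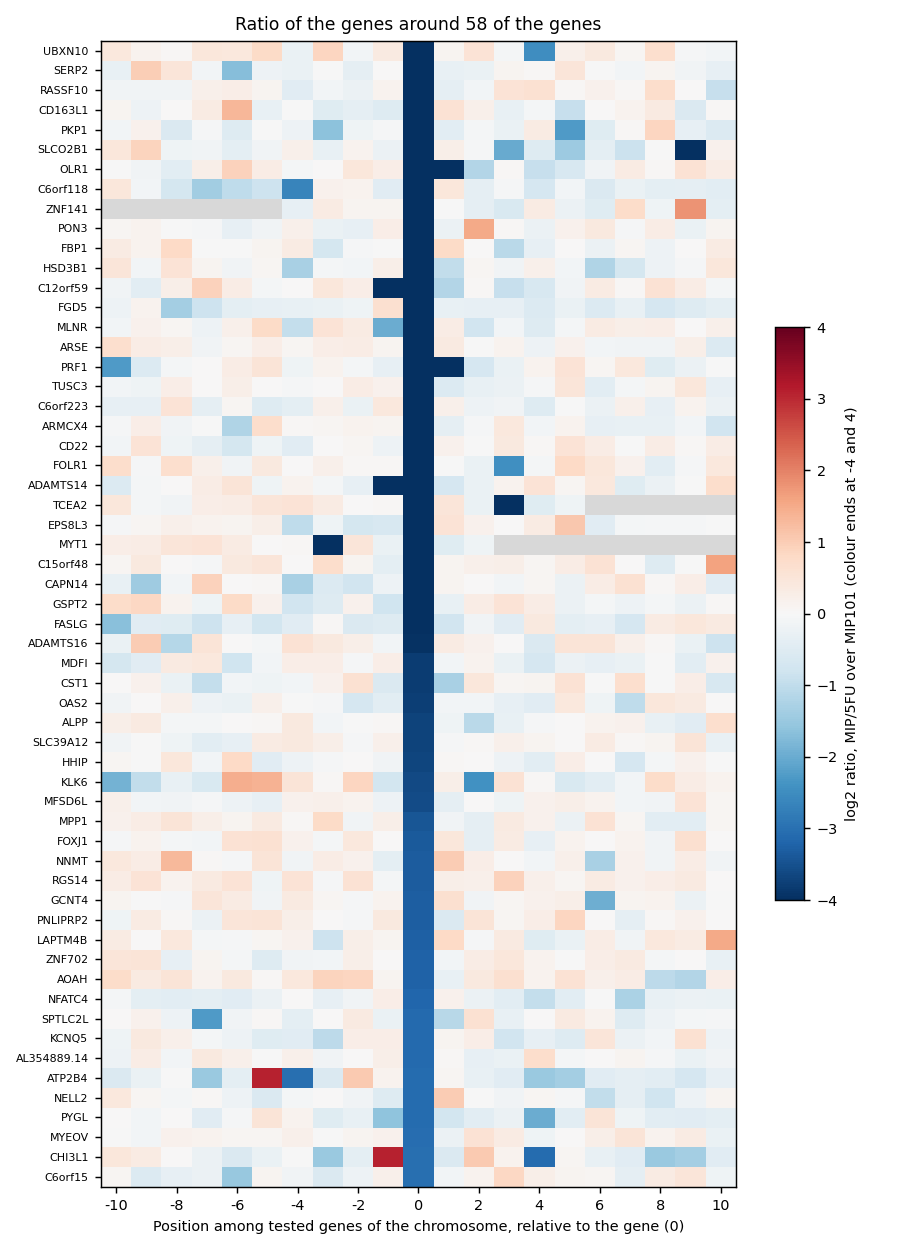
Log2 ratio of MIP/5FU over MIP101 of the 10 genes with at least 100 reads on each side of 58 of the 60 genes, ordered from the lowest ratio at the top; grey cells lie beyond the end of the chromosome. The central blue column is the selected gene itself, and the flanks are pale, with medians between -0.45 and 0.33, apart from single dark cells such as those beside OLR1, C12orf59, PRF1 and ADAMTS14.

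Within 1000 kb of each other lay 4 pairs. OLR1 and C12orf59 are adjacent on chromosome 12 (chr12:10202171-10235667, hg18), on opposite strands with their 5′ ends facing each other across 6.77 kb. Beyond C12orf59, GABARAPL1, an autophagy gene, had 3864 and 939 reads, a log2 ratio of -1.17. On the other side CLEC7A had 718 and 472 reads, a log2 ratio of 0.26. At 2-fold or more, the low ratios of this locus thus covered the pair and GABARAPL1. Beyond GABARAPL1, KLRD1 was at 0.06, KLRK1 at -0.93 and KLRC2 at -0.65.

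PRF1 and ADAMTS14 are also adjacent and divergent (chr10:72027110-72192203, hg18), 70.0 kb apart. They were flanked by KIAA1274, with a log2 ratio of -0.34, and by SGPL1 at -0.68. TCEA2 and MYT1 (chr20:62158883-62344048, hg18) have 2 other genes with 100 reads between them, RGS19 at 0.50 and OPRL1 at -0.26. RGS19 overlaps the end of TCEA2 on the opposite strand, and the protocol marked no strand, so reads in the overlap cannot be assigned to either gene. CHI3L1 and ATP2B4 (chr1:201414682-201984201, hg18) are separated by NECAP1 at -0.57, BTG2 at 1.04 and PRELP at 0.13. PPFIA4, beside CHI3L1, was higher in MIP/5FU, with 26 reads in the parent and 122 in the clone. Only the first 2 of these pairs were therefore unbroken by another gene.

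The other low neighbours outside the set were RP11-203I16.3 beside MLNR (-1.98), C14orf29 beside PYGL (-1.61), CST7 beside CST1 (-1.29) and ISM1 beside SPTLC2L (-1.12). Several genes stood beside relatives that were less than 2-fold apart between the lines. PON3 lies between PON1, at 0.27, and PON2, at -0.25. ARSE lies beside ARSD, at 0.10. OAS2 overlaps OAS3, at -0.44, and OAS1 of the same cluster was at -0.67. ZNF141 lies beside ZNF732, at 0.11, and ARMCX4 beside ARMCX6, at -0.37. In each of these clusters 1 gene of several was at least 8-fold lower, and that gene is why the cluster was looked up.

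Relatives elsewhere in the genome were mostly less than 2-fold apart as well. At least 2-fold lower were 3.09% of all genes with 100 reads, so lists of this size would hold few low relatives in any case. Of 13 UBX domain genes and partners with 100 reads, UBXN10 alone was at least 2-fold lower, and the median of the other 12 was 0.12. Of 15 sulfatases and their activators, ARSE was the single gene at least 2-fold lower, and SULF2 was at least 2-fold higher at 1.26. Of 8 genes with 100 reads in a list of scavenger receptors that did not include CD163L1, OLR1 was the single one at least 2-fold lower, with a median of 0.07 for the rest. Of 12 genes with 100 reads in the lectin cluster around OLR1, only GABARAPL1 joined OLR1 and C12orf59 in being at least 2-fold lower. GSPT2 has an ancestral copy with introns, GSPT1, which had 69110 and 38181 reads, a log2 ratio of 0.01. SERP1, the relative of SERP2, had 37827 and 15436 reads, a ratio of -0.43.

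In a few families a second gene was lower too, where 3.09% of all genes with 100 reads were at least 2-fold lower. The families were looked up because each held a gene of the set. HSD3B7, of bile acid synthesis, had 11735 and 2719 reads (log2 ratio -1.24), and HSD17B12, of fatty acid elongation, had 22397 and 5007 (-1.29), among 16 steroid dehydrogenase and steroidogenesis genes with 100 reads. KLK10, in the same cluster as KLK6, had 4992 and 512 reads (-2.42), while KLK7 had 223 and 144 (0.24). Of the relatives of CST1, CST7 had 7411 and 1662 reads (-1.29) and CST3 had 15062 and 5489 (-0.59). CST5, with under 100 reads, had 85 and 2, and no other CST gene had more than 17 in the parent. RASSF9 had 168 and 13 reads (-2.77), the only one of the 8 other RASSF genes with 100 reads that was at least 2-fold lower. ADAMTS15 had 141 and 25 reads (-1.60) among 7 ADAMTS genes outside the set, and RGS9 (87 and 18) and RGS6 (382 and 101) were lower among 10 genes whose symbols start with RGS. Of 7 pore and granule genes with 100 reads, PRF1 was the single one at least 2-fold lower, and DFNA5 was higher at 1.32. Some granule genes of lymphocytes had few reads, with 2 and 1 for GZMB and 6 and 3 for GNLY. NKG7 had 15 and 12, GZMM had 21 and 47, and CTSC had 9443 and 6884. OAS2 was the single member at least 2-fold lower of 5 OAS genes and neighbours with 100 reads, and ZNF141 of 5 zinc finger and neighbouring genes of its locus.

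Within the genes most exon regions with enough reads to compare were low. Coverage of exon regions, the non-overlapping pieces into which the annotation cuts exons, was turned into read equivalents by the mean bases per read. Of 710 exon regions in the 60 genes, 328 in 58 genes had at least 20 read equivalents over both libraries. Of those, 319 were at least 4-fold lower and 267 at least 8-fold lower, and all regions counted were at least 4-fold lower in 51 of the 58 genes. Only 1 region counted was less than 2-fold lower, the region 10a of ARMCX4. Since the genes were picked by their summed counts, the agreement of most regions in direction follows in part from the choice. The minimum of 20 was met mostly through MIP101, which also favours low ratios. Some regions below that minimum were not lower, such as region 7a of MYT1, with 5.61 and 6.46 read equivalents.

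Annotated splice junctions between consecutive exons were crossed by 8892 reads in the parent and 325 in the clone. Such reads were found in 55 of 57 genes with junctions in MIP101 and in 27 in MIP/5FU, of which 16 had at least 3. Of 558 junctions, 392 were read in MIP101 and 108 in MIP/5FU. These lower numbers in MIP/5FU follow largely from choosing genes with few reads there. The shares over all genes and junctions were not computed. PYGL was spliced throughout in both, with all of its 19 junctions read and 2395 and 145 reads over them. SPTLC2L had 1029 and 51 junction reads, and LAPTM4B had 583 and 16. In these genes the clone still had spliced reads along the gene.

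In C12orf59 and ARMCX4 the reads left in MIP/5FU lay in a single region. The same held for PON3 and FGD5, with 2 reads left each, and for C6orf15, with 16. Region 2a of C6orf15, however, held 97.5% of its coverage in MIP101 as well. In ADAMTS16 region 23a held 73.9% of the coverage in MIP/5FU, only 5.25 read equivalents, and 5.62% in MIP101. In ZNF141 region 3a held 45.0% in MIP/5FU, only 3.99 read equivalents, and 5.36% in MIP101. C12orf59 had 341 junction reads in the parent and 0 in the clone, and its first exon region had 1119 read equivalents and 0. The 89.2 read equivalents left in MIP/5FU were all in region 5a of the last exon, which held 73.2% of the gene's coverage in MIP101. ARMCX4 kept 9.70 read equivalents, all in region 10a, an 89-base region that held 7.10% of its MIP101 coverage. The rest of ARMCX4 had 0 in MIP/5FU. For OLR1, by contrast, the few reads left were spread over regions 2a to 6a, with 69.3% in region 6a in MIP/5FU and 71.3% in MIP101, and 1 junction read was left of 231.

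**Figure D4:**
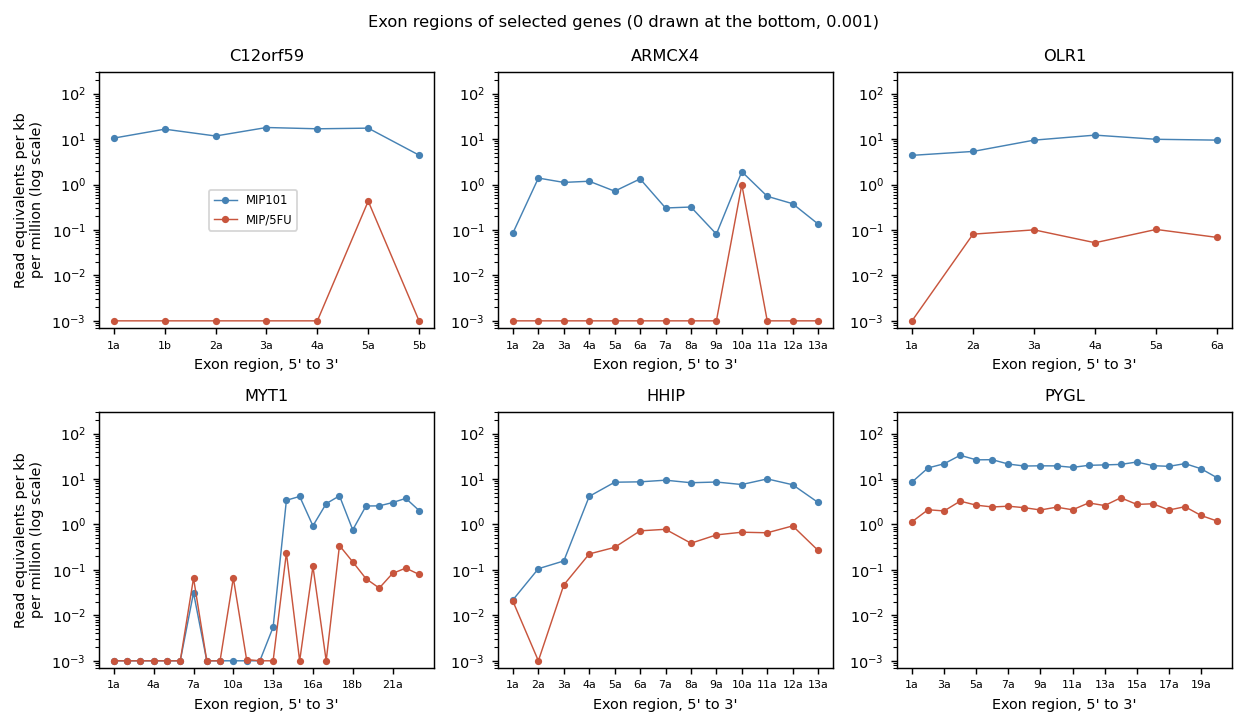
Read equivalents per kb, scaled to RPM of gene reads (log scale), in the exon regions of 6 genes, 5′ to 3′, in MIP101 (blue) and MIP/5FU (red), with 0 drawn at the bottom of the axis. C12orf59 and ARMCX4 keep 1 region in MIP/5FU, PYGL and OLR1 are lower along nearly their whole length, and MYT1 and HHIP are nearly without coverage in their first exons in MIP101.

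Coverage in MIP101 alone showed a feature that the rule did not use. In several of the genes the first annotated exons were nearly unread in the parent line too. A gene was counted here when its first 2 or more exons lay under 10% of the read density of its upper quartile exon, in genes with at least 5 exons and 100 MIP101 reads, where that density would have given at least 10 reads in them. This held for 11 of 40 genes of the set (27.5%) and for 702 of 10685 protein-coding genes (6.57%). Below the median MIP101 level it held for 31.4% of 35 genes of the set and 9.79% of 4657 protein-coding genes. Levels within that range were not matched further. The criterion was set after the exon coverage of these genes had been seen, so it is a description.

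In MYT1 the first 13 of 23 exons had 5.91 read equivalents over 2605 bases, while the later exons had 1404 over 2992 bases. In MIP/5FU those 13 exons had 7.34 of the gene's 38.0 read equivalents, 6.46 of them in the seventh, which had 5.61 in MIP101. In HHIP the first 3 exons had 13.2 read equivalents over 1284 bases and the rest had 2594 over 2252 bases. The other 9 were CAPN14, FGD5, PNLIPRP2, AOAH, CD163L1, TCEA2, ADAMTS16, KCNQ5 and SLC39A12. AOAH had 0 read equivalents in its first 3 exons, 607 bases, and 579 in the other 18. RefSeq windows were matched to 9 of these 11 genes. Among the 31 matched genes outside these 11, 48.4% had a CpG-rich window.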

How the data were processed

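Polyadenylated RNA of MIP101 and MIP/5FU was sequenced as paired reads, 1 library each, with random hexamers, 10 PCR cycles and no strand marking, per the labels' protocols. The authors mapped reads to features built from Ensembl genes on genome build hg18, per the file headers and the submitters' processing notes; no aligner is named in the sources used. Deposited values for genes, junctions and exon boundaries are raw read counts. The exon region files hold cumulative coverage, summed by the authors over the bases of reads, and the gene files also hold the authors' coverage per base normalized between the libraries. The percent of bases covered and the authors' expression flag were used as deposited.

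Totals were the sum of gene read counts over all 36953 genes. Ratios used 0.5 added reads and needed 100 reads in the libraries together; exact conditional binomial (Clopper-Pearson) 95% intervals came from scipy 1.17.1. A count of 0 in MIP/5FU was set to a floor of 3 reads. Coverage was divided by the mean read length counted, 40.4 bases for MIP101 and 39.8 for MIP/5FU, to give read equivalents. No test was possible with 1 library a group. The rule was tested on simulated data drawn for all 36953 genes, where it took 0 of 50 genes planted at 4-fold and 50 of 50 at 16-fold. Those data held counting error only. The planted genes had a read minimum above 100 and none was planted near 8-fold, so genes with few reads or near the limit were not tested. Neighbours are the nearest genes with 100 reads in hg18 order. Promoter windows come from RefSeq on GRCh38.p14, matched by symbol or unique synonym. The members, role groups and gene lists were chosen with earlier results of these data known. Values of 2 members are not reported here; the other 58 are named, and full values are given for the 20 with the most MIP101 reads, those with 0 reads in MIP/5FU, those within 1000 kb of another and those in the listed families. Alternatives covered scaling (TMM from edgeR), added reads, read minimums, thresholds and windows. Near-identical copies (the CST1, ALPP, HSD3B1 and zinc finger families) may share reads.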

Additional observations from a re-analysis of the deposited data

How the results depend on the processing

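The set numbered 62 genes with TMM factors from edgeR, 62 with median-ratio scaling and 61 with the authors' normalized coverage, and these kept 60, 60 and 59 of the 60. With 1 or 5 reads added it numbered 56 or 46, and with a minimum of 50 reads 72. It held 27 genes with a minimum of 500 reads, 127 at 4-fold, 31 at 16-fold and 38 when the whole counting interval had to lie beyond 8-fold. With 5 reads added, 7 of the 60 ratios left their counting interval. Genes beside a gene at least 2-fold lower numbered 8 among neighbours with 500 reads and 7 among protein-coding neighbours without overlap, against 8. Spliced reads in MIP/5FU were found in 27 genes, or in 16 when 3 were required. The flank median moved from -0.00 to -0.02 with 5 genes a side and 0.02 with 20, and the CpG ratio from 0.590 to 0.594 without the bases after the start. Depth limits the set at its low end: 19 of the 60 genes had under 200 reads in MIP101, and with 1 library a line nothing here measures the spread between cultures.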
